A study of Mus musculus with 18 samples.

Results

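The comparison described here is between wild type mouse embryonic fibroblasts 26 h and 22 h after dexamethasone, with 3 arrays at each time, chosen by the time in the sample titles, so that 6 of the 18 arrays of the series enter it directly. The fibroblasts are connective tissue cells grown out of embryos at embryonic day 13 after removal of head and liver, and the labels trace them to 2 C57BL/6 mice. All groups carried the same wild type genotype and all had been exposed for 2 h to 100 nM dexamethasone, which the labels call a serum shock. Dexamethasone is a glucocorticoid drug, and a pulse of it brings the clocks of cells in a dish into step. No untreated arrays enter the comparison. According to the description field, the cells on these arrays were the wild type fibroblasts of a Bmal1 knockout breeding, and the growth and description fields differ on the serum in the medium. Titles number 3 biological replicates at each time but do not tie an array to a culture or mouse, so p-values here reflect only how these samples spread, which may be technical.

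The mammalian clock is a loop of transcription factors. BMAL1 (gene Arntl) and CLOCK bind E-box sequences and switch on the Per and Cry genes and the nuclear receptors Nr1d1 and Nr1d2, PER and CRY proteins then block BMAL1 and CLOCK, and the REV-ERB receptors encoded by Nr1d1 and Nr1d2 repress Arntl. In dividing fibroblasts a second programme also varies with time in culture: genes for DNA copying are switched on by E2F factors at the start of S phase, and genes for mitosis are switched on later by the MuvB, B-MYB and FOXM1 proteins through CHR elements, often with the factor NF-Y bound at CCAAT boxes.

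The 6 arrays had median intensities from 197.3 to 202, and precision is set by having 3 arrays a time. All levels below are log2(intensity + 16) after quantile normalization, 1 probe set per gene, and a difference is the mean at 26 h minus the mean at 22 h with its standard error (SE) from limma fitted to all 18 arrays. A gene passed the test when its p-value, adjusted by Benjamini-Hochberg over all 19938 genes, was under 0.05. One array stood apart from its group. Over all genes tested, 22 h replicate 2 correlated at 0.9971 and 0.9968 with 26 h replicates 1 and 3 but at 0.9945 and 0.9958 with 22 h replicates 1 and 3. The deviations of the 18 arrays from their time means had a first component that held 33.8% of the variance, and its sign put 22 h replicates 1 and 3 with 26 h replicate 2 (array set A) and 22 h replicate 2 with 26 h replicates 1 and 3 (array set B). The sets were found in these values and no label names them, so differences are also given within each set as descriptions. Over all genes, a gene's weight on this component, positive when higher in set A, correlated at -0.355 with its difference between 26 h and 22 h. What lies behind that correlation was not tested. Fitting the set as a block removes spread that defined the sets, so p-values from that fit can be too small.

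Between 22 h and 26 h, 436 of 19938 genes passed the test (2.19%), 191 of them higher at 26 h (0.958%) and 245 lower (1.23%). The median difference over all genes was 0.01. Falls were deeper than rises: genes that fell had a median difference of -0.45, with 71 genes at least 1.5-fold lower, whereas genes that rose had a median difference of 0.28, with 4 genes at least 1.5-fold higher. Nr1d1 was the 1 gene that fell at least 2-fold, and 0 genes rose that far. Of the falls, 86 were on the lists of G2/M or G1/S genes and 147 were on no list. The count changed with the array left out. Without 22 h replicate 2 it was 1127, with 629 higher and 498 lower, and leaving out 22 h replicate 1 or 3 or 26 h replicate 1, 2 or 3 gave 138, 125, 235, 157 and 209.

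**Figure D1:**
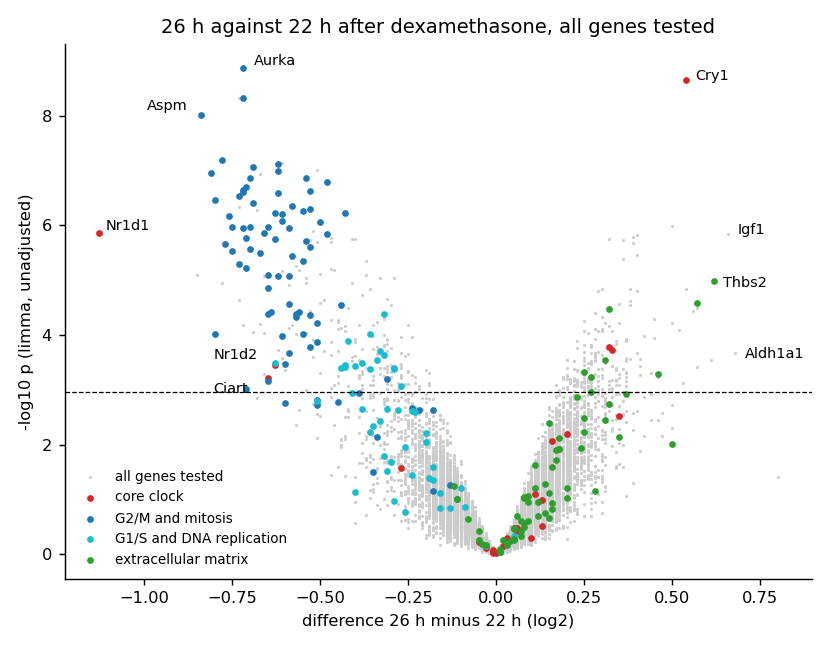
Each point is 1 of the 19938 genes, with the difference between 26 h and 22 h (log2, x axis) against -log10 of the unadjusted limma p-value (y axis); genes above the dashed line passed the test after adjustment. Genes of G2/M and mitosis lie far to the left, Nr1d1 has the largest fall and Cry1 one of the smallest p-values.

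Among the core clock genes, Nr1d1, Nr1d2 and Ciart fell over these 4 h and Cry1, Nfil3 and Hlf rose, which is 6 of 26 measured members against 2.19% of all genes. The median difference of the list was 0.05. Nr1d1, which encodes the receptor REV-ERB alpha, had RNA levels of 10.37, 10.71 and 10.28 in 22 h replicates 1 to 3 and of 9.49, 8.91 and 9.57 in 26 h replicates 1 to 3. Every 26 h array lay below every 22 h array, by a mean of -1.13 ± 0.16 (SE, n = 3 and 3), or 2.18-fold lower at 26 h (adjusted p = 0.000619, limma). Nr1d2, which encodes the paralogous receptor REV-ERB beta, was at 11.08, 10.88 and 11.08 at 22 h and at 10.43, 10.17 and 10.55 at 26 h. Its groups did not overlap either and differed by -0.63 ± 0.14, or 1.54-fold (adjusted p = 0.0275, limma). Arrays of the 2 times did not overlap for 17.6% of all genes. They did not overlap for 190 of the 191 genes called higher and all 245 called lower, so this adds little to a call. Ciart, also called Chrono, encodes a repressor of BMAL1 and CLOCK; it was at 7.70, 7.32 and 7.94 at 22 h and at 7.01, 6.86 and 7.15 at 26 h. The groups were again separate, with a difference of -0.65 ± 0.15 (adjusted p = 0.0359, limma), but the array holds a further, dimmer probe set for Ciart, with a difference of -0.30 and an adjusted p of 0.276 when all probe sets were tested.

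Cry1, a cryptochrome that closes the loop by repressing BMAL1 and CLOCK, moved the other way. It was at 7.88, 7.81 and 7.83 in the 22 h arrays and at 8.43, 8.40 and 8.33 in the 26 h arrays. The replicates of each time lay close together and the rise was 0.54 ± 0.05, or 1.46-fold (adjusted p = 2.24e-05, limma), with 0.55 and 0.57 within array sets A and B. Nfil3 encodes E4BP4, a repressor at the D-box sites that DBP, TEF and HLF activate, and it was at 8.67, 8.46 and 8.59 at 22 h and at 8.98, 8.89 and 8.85 at 26 h. This rise of 0.33 ± 0.07 passed the test (adjusted p = 0.0190, limma), with no overlap between the times. Hlf, one of the D-box activators, was at 9.67, 9.99 and 9.78 at 22 h and at 10.11, 10.11 and 10.19 at 26 h, again without overlap, a rise of 0.32 ± 0.07 (adjusted p = 0.0170, limma). Of these 6 calls, those of Nr1d1 and Cry1 held when any 1 of the 6 arrays was left out. Nr1d2 lost its call without 22 h replicate 1 or 3 or 26 h replicate 1 or 2 (adjusted p up to 0.142), Hlf without 22 h replicate 1 or 3 or 26 h replicate 2 or 3 (up to 0.130), Nfil3 without 22 h replicate 3 or 26 h replicate 1 or 2 (up to 0.0808), and Ciart without any 1 of the arrays but 22 h replicate 2 (up to 0.220).

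The activator Arntl, which encodes BMAL1, did not pass the test. It was at 9.03, 8.79 and 9 at 22 h and at 9.19, 9.57 and 9.12 at 26 h. Every 26 h array lay above every 22 h array, which held for 10.5% of all genes. The difference was 0.35 ± 0.10 (adjusted p = 0.0882, limma). With the array set as a block, an alternative chosen after seeing the data, its difference was 0.40. The adjusted p of Arntl was then 0.0232 in limma, which can be too small. Its partners Clock and Arntl2 differed by 0.06 and -0.01. The Per genes, repressors that pair with the cryptochromes, were near level over this step, with differences of -0.03 for Per1, 0.13 for Per2 and 0.10 for Per3 (adjusted p = 0.936, 0.458 and 0.805, limma). Per3 was uneven at 26 h, with 8.82, 8.41 and 8.92 against 8.53, 8.65 and 8.66 at 22 h, so that its groups overlapped. Cry2, the sister of Cry1, had 7.83, 7.86 and 7.75 at 22 h and 8.10, 7.86 and 8.07 at 26 h, a difference of 0.20 ± 0.06 (adjusted p = 0.134, limma); without 26 h replicate 2 it was 0.27 with an adjusted p of 0.0430.

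The other D-box activators did not pass the test. Dbp was at 9.95, 10.22 and 9.97 at 22 h and at 9.82, 9.51 and 9.98 at 26 h, which overlap, and differed by -0.27 ± 0.11 (adjusted p = 0.266, limma), and Tef differed by -0.01. Of the receptors that activate where REV-ERBs repress, Rora differed by 0.16 (adjusted p = 0.158, limma; 0.21 and 0.0315 without 22 h replicate 2) and Rorb by 0.06. The E-box repressors Bhlhe40 (DEC1) and Bhlhe41 (DEC2) differed by -0.05 and 0.18. The 7 measured kinases and ubiquitin ligases that act on clock proteins were Csnk1d, Csnk1e, Csnk2a1, Gsk3b, Fbxl21, Btrc and Fbxw11. Their differences ran from -0.01 to 0.13, and 0 of them passed the test, beside 2.19% of all genes.

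**Figure D2:**
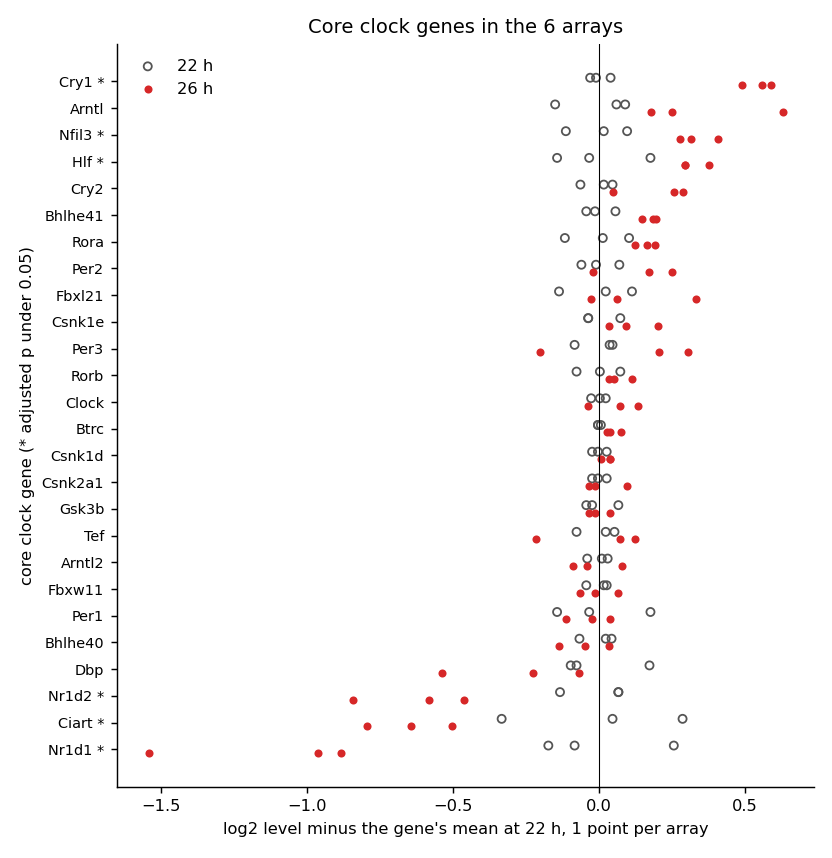
Level of each measured core clock gene in each of the 6 arrays, minus that gene's mean at 22 h (log2, x axis), with 22 h arrays as open and 26 h arrays as filled points; an asterisk marks genes that passed the test. The 26 h points of Nr1d1, Ciart and Nr1d2 lie left of all their 22 h points, and those of Cry1, Nfil3 and Hlf lie right of them.

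Promoter sequence of the core clock genes was read from RefSeq as the 250 bases before each annotated start on GRCm38.p6. The E-box CACGTG, which reads the same on both strands, was present in 6 of 31 promoter entries of core clock genes (19.4%) and in 6.02% of all 32851 entries. Among the 6 clock genes that passed the test, it was found in 1 that rose, Cry1, and in 1 that fell, Ciart. The stretches around these boxes are shown because the same letters stand before genes that moved in opposite directions, with the E-box in capitals. That of Cry1 lies at chr10:85185064-85185159 (minus strand, 105 to 10 bases before the start) and that of Ciart at chr3:95882229-95882389 (minus strand, 161 to 1 bases before the start).
Cry1: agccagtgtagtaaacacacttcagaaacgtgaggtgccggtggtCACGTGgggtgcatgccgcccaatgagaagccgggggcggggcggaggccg
Ciart: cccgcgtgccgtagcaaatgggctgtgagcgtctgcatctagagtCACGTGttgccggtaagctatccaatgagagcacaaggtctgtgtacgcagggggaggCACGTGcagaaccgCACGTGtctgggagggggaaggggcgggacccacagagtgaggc
Cry1 held 1 E-box in this window and Ciart 3. The D-box, searched as TTACGTAA or TTATGTAA on both strands, stood in 1 of 31 core clock entries (3.23%) and in 0.931% of all entries. A match is a description of the letters and not of binding.

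Of the 13 measured clock output genes, which follow the clock in many tissues, Ypel2, Usp2 and Dtx4 rose, against 0.958% of all genes, and 0 fell, and the list's median difference was -0.01. Usp2, a ubiquitin-specific protease, was at 8.59, 8.74 and 8.71 at 22 h and at 8.96, 8.87 and 9.01 at 26 h. The times did not overlap and differed by 0.27 ± 0.06 (adjusted p = 0.0359, limma). Ypel2 rose by 0.33 and Dtx4, a ubiquitin ligase of the Deltex family, by 0.34 (adjusted p = 0.0285 and 0.0375, limma). Each of these 3 calls was lost without 22 h replicate 1 or 3 or 26 h replicate 1, 2 or 3, with adjusted p up to 0.182 for Ypel2, 0.224 for Usp2 and 0.242 for Dtx4. Of the 23 measured genes that the glucocorticoid receptor induces, 0 passed the test in limma in either direction, 1 had an unadjusted p under 0.05, beside 2872 of all 19938 genes, and the median difference was 0.04. The widest difference there was that of Sgk1, a kinase, with 10.57, 10.20 and 10.49 at 22 h and 10.10, 10.25 and 10.19 at 26 h, or -0.24 ± 0.09 (adjusted p = 0.223, limma; 0.0252 without 22 h replicate 2).

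The largest group of falls was that of genes for G2 and mitosis. Of 84 measured members, 70 fell and 0 rose, against 1.23% of all genes that fell, and the median difference was -0.60 beside 0.01 over all genes. In 78 members every 26 h array lay below every 22 h array, which held for 7.05% of all genes. In bulk RNA, fewer cells in mitosis and less of these transcripts per cell cannot be told apart. The number that fell was 53 to 78 over the fits that left out 1 array.

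Aurka, the kinase Aurora A that acts at the spindle poles, was at 10.20, 10.07 and 10.23 at 22 h and at 9.50, 9.30 and 9.52 at 26 h. All 26 h arrays lay below all 22 h arrays, by -0.72 ± 0.06, or 1.65-fold (adjusted p = 2.24e-05, limma). Tacc3, a spindle protein that Aurora A phosphorylates, went from 9.64, 9.43 and 9.60 to 8.91, 8.72 and 8.88, a fall of the same size at -0.72 ± 0.07 (adjusted p = 2.37e-05, limma). Aspm, a spindle pole protein, was at 9.96, 9.76 and 9.97 at 22 h and at 9.10, 8.95 and 9.13 at 26 h. The times were separate and differed by -0.84 ± 0.08, or 1.79-fold (adjusted p = 3.95e-05, limma). Kif14, a kinesin of the cleavage furrow, fell by 0.78 on the log2 scale (adjusted p = 0.000179, limma), while a further dim probe set for Kif14 differed by -0.02. The calls of these 4 genes held with any 1 array left out.

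All roles within the list took part. Of 21 kinesins and other spindle proteins, 20 fell, with a median difference of -0.69, and among them were Hmmr at -0.81 and Kif20b at -0.80. Of 15 cyclins, kinases and phosphatases, 12 fell, with a median of -0.58, including Nek2, a centrosome kinase, at -0.80 and Cdkn3, a phosphatase of CDK1 and CDK2, at -0.75. Of 9 genes of the spindle checkpoint and of anaphase, 7 fell, with a median of -0.57. Of 19 centromere and kinetochore genes, 13 fell, with a median of -0.59, including the motor Cenpe at -0.77 and Cenpf at -0.75. Of 20 genes for chromosome structure and cytokinesis, 18 fell, with a median of -0.54, including Cep55 at -0.76 and Ect2 at -0.71, both of which act in cytokinesis. Pttg1, securin, was the 1 member with a positive difference, 0.01 (adjusted p = 0.971, limma), and the mitotic kinase gene Cdk1 did not pass the test at -0.45 (adjusted p = 0.0642, limma). The remaining genes among the 12 largest falls that passed, Shcbp1 at -0.85 and Cip2a at -0.78, were on no list. Kif20b lost its call without 22 h replicate 1 or 3 or 26 h replicate 1 (adjusted p up to 0.0945), and the other genes named in this paragraph as fallen kept theirs in these fits.

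The promoters of the G2 and mitosis genes are shown for 4 members that fell. A CCAAT box, searched as CCAAT on both strands, stood in 52 of 79 promoter entries of the list (65.8%) and in 33.8% of all entries, and a CHR, searched as TTTGAA or TTCGAA on both strands, in 30 of 79 (38.0%) and in 17.1% of all entries. Aurka (chr2:172370571-172370666, minus strand, 96 to 1 bases before the start) and Aspm (chr1:139454615-139454772, plus strand, 158 to 1 bases before the start) are shown with their CCAAT boxes in capitals, which in Aspm lie on the opposite strand. Prc1, which bundles microtubules at the midzone of the spindle (chr7:80294401-80294475, plus strand, 75 to 1 bases before the start), and Ccnf, cyclin F (chr17:24251410-24251584, minus strand, ending 1 base before the start), are shown with their CHRs in capitals.
Aurka: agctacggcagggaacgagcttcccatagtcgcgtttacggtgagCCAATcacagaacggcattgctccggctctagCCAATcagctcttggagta
Aspm: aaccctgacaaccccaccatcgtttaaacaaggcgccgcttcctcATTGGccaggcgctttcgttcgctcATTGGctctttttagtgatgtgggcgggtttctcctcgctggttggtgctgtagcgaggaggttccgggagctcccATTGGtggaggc
Prc1: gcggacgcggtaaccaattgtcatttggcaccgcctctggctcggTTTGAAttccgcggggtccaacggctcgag
Ccnf: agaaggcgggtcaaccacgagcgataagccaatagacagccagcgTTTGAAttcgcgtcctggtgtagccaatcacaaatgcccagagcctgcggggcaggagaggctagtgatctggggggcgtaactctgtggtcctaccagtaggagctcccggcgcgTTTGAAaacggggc
Prc1 fell by 0.69 and Ccnf by 0.62 on the log2 scale (adjusted p = 0.000179 for each, limma). The members that fell held a CCAAT box in 42 of 64 entries (65.6%) and a CHR in 25 of 64 (39.1%); these entries are part of the list's own.

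Genes of the G1/S transition and of DNA replication fell in part. Of 46 measured members 16 fell, against 1.23% of all genes, and 0 rose, with a median difference of -0.30, and in 29 the 26 h arrays all lay below the 22 h arrays, against 7.05% of all genes. Mcm3, a subunit of the helicase that licenses origins, was at 9.96, 9.71 and 9.90 at 22 h and at 9.51, 9.39 and 9.58 at 26 h. Those values do not overlap and differed by -0.36 ± 0.07 (adjusted p = 0.0117, limma). E2f7, a repressor of E2F targets, fell by 0.32, Uhrf1, which carries DNA methylation through replication, by 0.42 and Tk1, thymidine kinase, by 0.33 (adjusted p = 0.00664, 0.0143 and 0.0195, limma). A further probe set for Tk1 differed by -0.26 (adjusted p = 0.271 when all probe sets were tested), and the call was lost with the mean of its probe sets. By role, 7 of 16 genes of origin licensing and firing, 8 of 22 genes of the fork, of nucleotide supply and of repair, and 1 of 8 cyclins and E2F factors fell. Mcm3, E2f7 and Uhrf1 lost their calls without 22 h replicate 1 or 3 or 26 h replicate 2, and Tk1 also without 26 h replicate 1 (adjusted p up to 0.0936, 0.0545, 0.107 and 0.139). The number of G1/S calls changed with the array left out. It was 0 of 46 without 22 h replicate 1, without 22 h replicate 3 or without 26 h replicate 2. It was 5 without 26 h replicate 1, 7 without 26 h replicate 3 and 33 without 22 h replicate 2.

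In both cell cycle lists the array sets differed, but not in 1 direction. Arrays of set A were higher than set B at 22 h and lower at 26 h. Relative to each gene's 22 h mean, the median G2/M member was at 0.09, -0.15 and 0.06 in 22 h replicates 1 to 3 and at -0.56, -0.71 and -0.56 in 26 h replicates 1 to 3. The array of 22 h nearest to the 26 h arrays was replicate 2, and the lowest array of 26 h was replicate 2. Within array set A the median difference of the G2/M list was -0.80 and within set B -0.41, and for the G1/S list it was -0.44 and -0.10. With the set as a block, 78 G2/M and 21 G1/S members were lower. Such counts can be too high, because the sets were built from these arrays' own deviations. What the sets reflect was not tested.

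**Figure D3:**
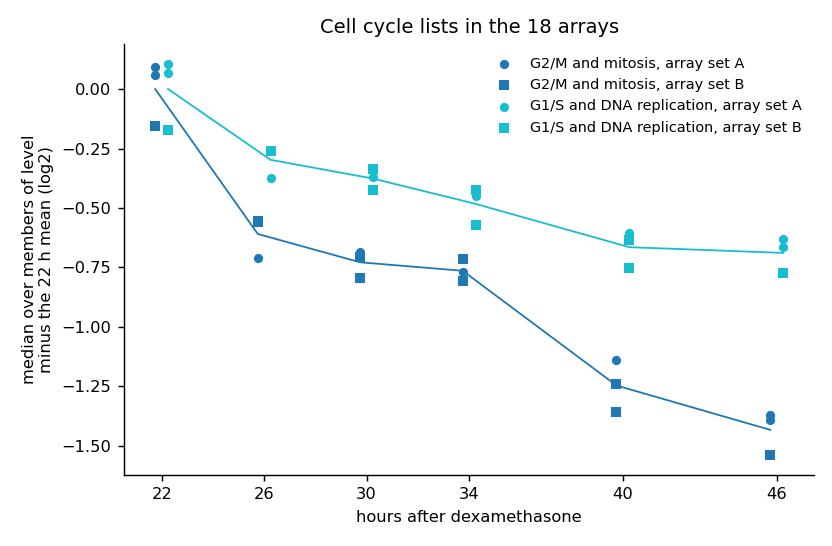
Median over the members of the G2/M and G1/S lists of the level minus each gene's 22 h mean (log2, y axis) in all 18 arrays by hours after dexamethasone (x axis, the lists set slightly apart), with circles for array set A, squares for set B and lines through the time means. The G2/M median falls from 0 at 22 h to -0.61 at 26 h, is -0.76 at 34 h and reaches -1.43 at 46 h.

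Regulators of cell division and growth were called singly, beside 0.958% of all genes higher and 1.23% lower. Of 14 measured cell cycle inhibitors and D cyclins, 1 fell, Cdkn2c, which encodes the CDK4 and CDK6 inhibitor p18. It was at 9.67, 9.64 and 9.69 at 22 h and at 9.28, 9.40 and 9.32 at 26 h, below in every array, by -0.33 ± 0.05 (adjusted p = 0.00207, limma). Of 25 growth factor genes, receptors and binding proteins, 2 rose and 1 fell, and the median difference was 0.02. Igf1, insulin-like growth factor 1, was at 9.54, 10.01 and 9.70 at 22 h and at 10.31, 10.55 and 10.37 at 26 h. It rose by 0.66 ± 0.09, or 1.58-fold (adjusted p = 0.000619, limma), by 0.93 within array set A and by 0.33 within set B. Igfbp4, a binding protein for IGFs, rose by 0.33 (adjusted p = 0.0451, limma). Hbegf, a ligand of the EGF receptor, fell from 10.13, 9.95 and 10.05 to 9.66, 9.45 and 9.60, a difference of -0.47 ± 0.07 (adjusted p = 0.000681, limma). Igfbp4 kept its call in the fit without 22 h replicate 2 but in none of the other 5 that left out 1 array (adjusted p up to 0.270), while Igf1, Hbegf and Cdkn2c kept theirs in all 6, and Cdkn2c was at an adjusted p of 0.0506 when only the times compared were fitted. Of 23 immediate early genes 1 fell, Egr2, by 0.39 on the log2 scale (adjusted p = 0.0340, limma), a call that held only without 22 h replicate 2 among those 6 fits (up to 0.223).

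Of 63 measured matrix genes 7 rose, against 0.958% of all genes, 0 fell and 56 did not pass the test, with a median difference of 0.14 beside 0.01 over all genes. Thbs2, thrombospondin 2, was at 10.68, 11.21 and 10.86 at 22 h and at 11.45, 11.63 and 11.52 at 26 h. Its times did not overlap and differed by 0.62 ± 0.10, or 1.54-fold (adjusted p = 0.00236, limma). Postn, periostin, a matrix protein of remodelling tissue, was at 10.99, 11.31 and 10.99 at 22 h and at 11.58, 11.88 and 11.53 at 26 h, a rise of 0.57 ± 0.10 (adjusted p = 0.00496, limma). The collagen genes Col6a3 and Col12a1 rose as well, by 0.32 and 0.31 (adjusted p = 0.00575 and 0.0244, limma), and all 16 collagen genes measured had differences above 0, from 0.04 to 0.32. The proteoglycan gene Lum rose by 0.46 and the protease genes Plat and Mmp19 by 0.25 and 0.27 (adjusted p = 0.0338, 0.0320 and 0.0352, limma). In 23 of the 63 genes the times did not overlap with 26 h above, against 10.5% of all genes.

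The size of the matrix differences also varied between the array sets, with a list median of 0.18 within set A and 0.05 within set B. Thbs2 differed by 0.86 and 0.28 within the sets, and Postn by 0.89 and 0.25. The lowest 22 h arrays were replicates 1 and 3, and the highest 26 h array was replicate 2 for Thbs2, Postn, Col6a3 and Col12a1 alike. The number of matrix genes that rose was 21 without 22 h replicate 2, 3 and 2 without 22 h replicates 1 and 3, 5 without 26 h replicate 1 and 4 without 26 h replicate 2 or 3. By gene, Thbs2 and Postn kept their calls in these 6 fits but lost them when only the times compared were fitted (adjusted p = 0.0713 and 0.0813, limma), Col6a3 lost its call without 22 h replicate 3 (adjusted p = 0.0542, limma), and Col12a1 without 22 h replicate 1 or 3 or 26 h replicate 2 or 3 (up to 0.147). Lum lost its call without the same 4 arrays as Col12a1, Mmp19 without 22 h replicate 1 or 3 or 26 h replicate 1 or 3, and Plat without 22 h replicate 1 or 3 or 26 h replicate 1 or 2 (up to 0.175, 0.165 and 0.21). Of 18 contractile and smooth muscle genes, Mylk, myosin light chain kinase, rose by 0.45 and Actg2, enteric smooth muscle actin, fell by 0.31 on the log2 scale (adjusted p = 0.00794 and 0.0135, limma). Over all genes 0.958% rose and 1.23% fell. Mylk lost its call without 22 h replicate 1 or 3 or 26 h replicate 2 (up to 0.0672), and Actg2 without 22 h replicate 1 or 3 or 26 h replicate 1 or 3 (up to 0.108). Of 22 targets of YAP and TGF-beta, 1 fell (4.55% called, beside 2.19% of all genes), Ankrd1, by 0.28 (adjusted p = 0.0460, limma). That call held only without 22 h replicate 2 among those fits (up to 0.238).

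**Figure D4:**
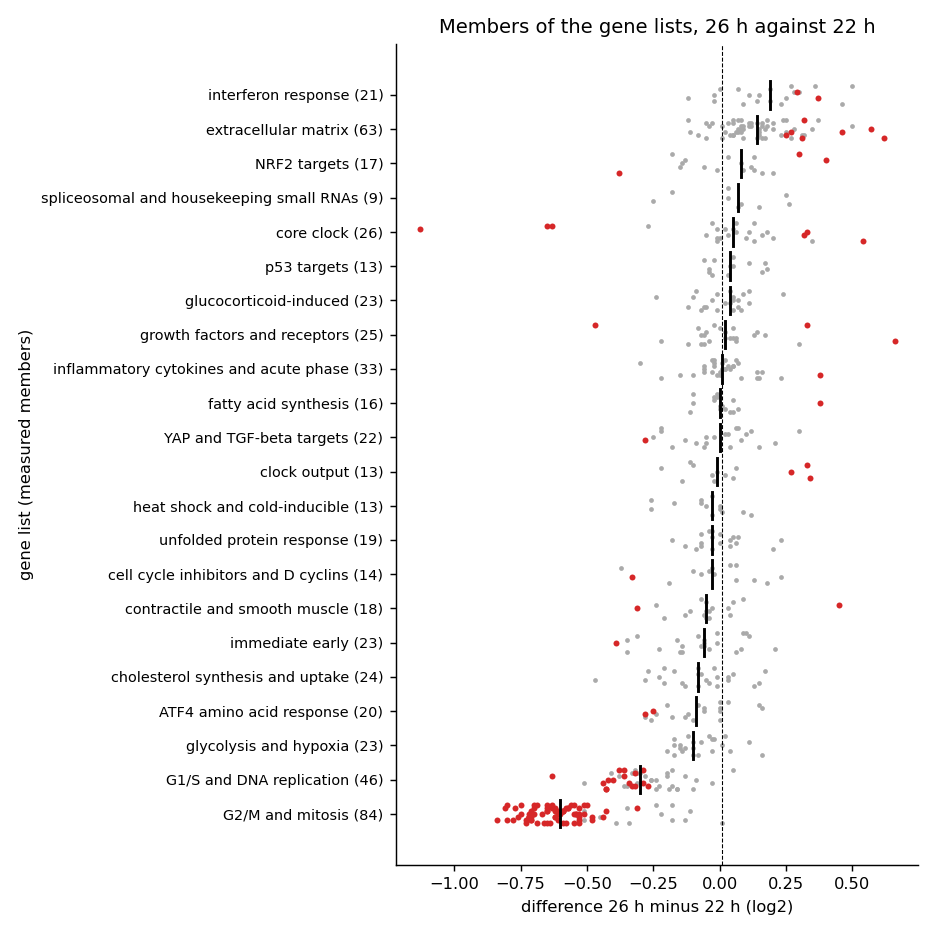
Difference between 26 h and 22 h (log2, x axis) of each measured member of 22 gene lists (y axis, number of members in brackets), with genes that passed the test in red, list medians as black bars and the median of all genes, 0.01, as a dashed line. The G2/M and G1/S lists lie to the left, at -0.60 and -0.30, and the matrix and interferon lists to the right, at 0.14 and 0.19.

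The largest rise among genes that passed was that of Aldh1a1. This gene, whose enzyme oxidises retinaldehyde to retinoic acid, was at 10.41, 10.51 and 10.59 at 22 h and at 11.14, 11.27 and 11.15 at 26 h. Every array was higher at 26 h, by 0.68 ± 0.15, or 1.61-fold (adjusted p = 0.0201, limma). Its near-identical neighbour Aldh1a7 rose by 0.57 ± 0.10 (adjusted p = 0.00561, limma); transcripts of such close paralogs may bind each other's probes, so these are not independent rises. Cyp2f2, a cytochrome P450, was at 8.30, 8.23 and 8.45 at 22 h and at 8.80, 8.78 and 9.08 at 26 h, a rise of 0.56 ± 0.10 without overlap (adjusted p = 0.00622, limma). Among genes that passed, the rest of the 12 largest rises beside Igf1, Thbs2, Postn and Cry1 were Pi15, a secreted CAP domain protein, at 0.61, Angptl7, an angiopoietin-like protein, at 0.57, Apod, apolipoprotein D, at 0.54, Dnah7b, an axonemal dynein, at 0.53 and Slc37a2, a sugar phosphate transporter, at 0.52. A further probe set for Dnah7b differed by 0.11, and its call was lost in all 6 fits that left out 1 array (adjusted p up to 0.176). Aldh1a1 lost its call in the 5 such fits that kept 22 h replicate 2 (up to 0.119), Pi15 and Slc37a2 without 22 h replicate 1 or 3 or 26 h replicate 2 (up to 0.171 and 0.0823), Angptl7 also without 26 h replicate 3 (up to 0.178), and Aldh1a7, Cyp2f2 and Apod in none of the 6, with Apod at an adjusted p of 0.0713 when only the times compared were fitted.

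Interferon-induced genes had a median difference of 0.19 over 21 measured members, of which 2 rose, against 0.958% of all genes, 0 fell, and 11 were above their 22 h arrays in every 26 h array, against 10.5% of all genes. Stat2, a transcription factor of the interferon response, was at 10.01, 10.10 and 9.97 at 22 h and at 10.31, 10.28 and 10.36 at 26 h, a rise of 0.29 ± 0.05 (adjusted p = 0.00312, limma), and Gbp3, a guanylate-binding protein, rose by 0.37 (adjusted p = 0.0383, limma). In the lists that follow in this paragraph 1 to 3 members passed, beside 0.958% of all genes higher and 1.23% lower. Among 33 genes of cytokines and the acute phase 1 rose (3.03% called, near the 2.19% of all genes), C4b, complement component 4B, by 0.38 (adjusted p = 0.0237, limma). Of 17 targets of NRF2, the regulator of antioxidant enzymes, Gstt1 and Gsta4, both glutathione transferases, rose by 0.40 and 0.30 (adjusted p = 0.00312 and 0.0344, limma). Slc7a11, the cystine transporter, fell by 0.38 on the log2 scale (adjusted p = 0.0418, limma). It was dim, at 7.01, 6.66 and 6.89 at 22 h and at 6.30, 6.63 and 6.50 at 26 h. Its call was also lost with cyclic loess, with a constant of 1, with the replicate block and with only the times compared. Of 20 genes of the ATF4 amino acid response, Slc7a5, a transporter of large neutral amino acids, fell by 0.25 and Psat1, an enzyme of serine synthesis, by 0.28 (adjusted p = 0.0319 and 0.0393, limma). Of 16 genes of fatty acid synthesis 1 rose, Acss2, acetyl-CoA synthetase 2, from 8.05, 8.15 and 8.03 to 8.55, 8.38 and 8.43, or by 0.38 ± 0.07 (adjusted p = 0.00512, limma). In the fits that left out 1 array, Stat2, Gstt1 and Acss2 kept their calls, which were lost when only the times compared were fitted (adjusted p = 0.0975, 0.0606 and 0.0514, limma). Gbp3, C4b and Psat1 kept theirs only without 22 h replicate 2 (adjusted p up to 0.23, 0.139 and 0.217). Gsta4 and Slc7a5 lost theirs without 22 h replicate 1 or 3 or 26 h replicate 2 or 3 (up to 0.191 and 0.159), and Slc7a11 without 22 h replicate 1 or 3 or 26 h replicate 1 or 3 (up to 0.263).

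Other programmes gave no call in limma in either direction. Among 24 genes of cholesterol synthesis and uptake the median difference was -0.08, and at an unadjusted p under 0.05 2 were higher and 8 lower; the widest, Idi1, an isomerase of the pathway, was at 9.7, 9 and 9.6 at 22 h and 8.97, 9.07 and 8.84 at 26 h, which overlap (adjusted p = 0.303, limma). The counts at an unadjusted p under 0.05 were 3 of 23 for glycolysis and hypoxia, 2 of 19 for the unfolded protein response, 2 of 13 for heat shock and cold-inducible genes, 3 of 13 for p53 targets and 1 of 9 for spliceosomal and housekeeping small RNAs. They were 3 of 61 for ribosomal proteins, 5 of 77 for mitochondrial ribosomal proteins, 8 of 85 for the respiratory chain and ATP synthase, 3 of 54 for small nucleolar RNAs and, for 300 microRNA genes, 19 higher and 10 lower. Over all genes tested, 1751 were higher and 1121 lower at that level. The widest differences in these lists did not pass the test. They were -0.20 for Hk2, a hexokinase, 0.23 for Syvn1, a ubiquitin ligase of the endoplasmic reticulum, -0.26 for Hspd1, a mitochondrial chaperone, 0.18 for Sesn1, sestrin 1, and 0.26 for Terc, the telomerase RNA. In the larger families they were -0.26 for Rpl39l, -0.18 for Mrpl47, 0.21 for Uqcrh and -0.37 for Mir20a. Scarna13, a small RNA of Cajal bodies, was at 9.46, 9.65 and 9.45 at 22 h and at 10.72, 10.29 and 9.97 at 26 h. This difference of 0.80 ± 0.36 was larger than any rise that passed, with no overlap but a wide spread at 26 h (adjusted p = 0.313, limma). Of 40 proteasome subunits 1 fell (2.5% called, near the 2.19% of all genes), Psmd7, by 0.25 on the log2 scale (adjusted p = 0.0411, limma), a call kept only without 22 h replicate 2 (up to 0.2 in the other 5 fits that left out 1 array).

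Markers of the labelled cell type were present. Dcn, decorin, lay between 13.19 and 13.30 over the 6 arrays, Vim between 13.31 and 13.36 and Col1a2 between 12.97 and 13.21, whereas Thy1, a surface antigen of many fibroblasts, lay between 7.14 and 7.35. Each array's lower quartile was 6.601 to 6.673 and its upper quartile 9.46 to 9.501; probe sets differ in how they bind, so these levels are not ranked. Of 14 fibroblast markers Pdgfra, Pdgfrb and Lum rose, by 0.32, 0.25 and 0.46 (adjusted p = 0.00945, 0.0245 and 0.0338, limma), beside 0.958% of all genes. Pdgfra lost its call without 22 h replicate 1 or 26 h replicate 2 (adjusted p up to 0.0788), and Pdgfrb and Actn3 kept theirs only without 22 h replicate 2 among the fits that left out 1 array (up to 0.174 and 0.144). The summed level of the fibroblast list was 15.99 to 16.05 at 22 h and 16.07 to 16.12 at 26 h. Markers of other cells ranged widely. Adipoq of adipocytes lay at 6.29 to 6.51 and Plin1 of the same list at 7.46 to 7.63. Pecam1 of endothelium lay at 6.57 to 6.87 and Cldn5 of that list at 7.66 to 7.92. Alas2 of red cells lay at 6.87 to 7.01 and Cd3e, also in the blood list, at 7.49 to 7.70. In the macrophage list Ptprc lay at 6.63 to 6.94 and Cd68 at 8 to 8.17, and in the epithelial list Epcam at 6.83 to 7.03 and Krt19 at 8.18 to 8.42. In the bone and cartilage list Acan lay at 6.5 to 6.66, Col2a1 at 9.08 to 9.28 and Sox9 at 9.93 to 10.11, and in the neural list Gfap at 6.75 to 7.08 and Nes at 8.61 to 8.84. Over the lists for adipocytes, bone and cartilage, macrophages, endothelium, epithelium, neural cells and blood, 0 of 50 markers passed the test in limma, beside 2.19% of all genes, and 2 had an unadjusted p under 0.05, beside 2872 of all 19938. In the skeletal muscle list 1 of 9 rose, Actn3, by 0.29 (adjusted p = 0.0196, limma). Mylpf, a myosin light chain gene, lay lower in every 26 h array, as did 7.05% of all genes, at -0.33 (adjusted p = 0.0517, limma). With the array set as a block its adjusted p in limma was 0.0468, which can be too small. The muscle list's summed level was 10.76 to 10.91 at 22 h and 10.95 to 10.99 at 26 h. Its members ranged widely too, with Myod1 between 7.16 and 7.32, Tnnt1 between 8.40 and 8.53 and Actn3 between 9.25 and 9.66. The summed level of the neural list was 10.76 to 10.8 at 22 h and 10.63 to 10.72 at 26 h. The part of other cells in the results was not tested.

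The step from 22 to 26 h was then set against later steps of the same length. From 26 to 30 h, 0 genes passed the test in limma and 517 had an unadjusted p under 0.05, and from 30 to 34 h 18 passed (0.0903%), 3 higher (0.015%) and 15 lower (0.0752%). The difference between the step from 22 to 26 h and the step from 26 to 30 h, in which the 26 h arrays enter both sides, passed for 0 genes, with 967 at an unadjusted p under 0.05 and 4 genes when arrays were weighted. Against the step from 30 to 34 h, which shares no array with 22 and 26 h, the difference passed for 108 genes (0.542%), 39 with the larger value (0.196%) and 69 with the smaller value (0.346%) in the first step. Of those 69, 38 were G2/M genes, and 0 were G1/S genes. The median G2/M difference was -0.60 from 22 to 26 h, -0.11 from 26 to 30 h and -0.04 from 30 to 34 h. The list was lower again after that, with a mean over arrays of -0.764 at 34 h and -1.25 at 40 h relative to 22 h, a longer interval.

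By gene, the difference between the steps was -0.76 for Aurka and -0.90 for Nek2 (adjusted p = 0.00115 and 0.00992, limma), both with a fall in the first step and differences of 0.03 and 0.10 from 30 to 34 h. For Cry1 it was 0.74 (adjusted p = 8.37e-05, limma), with 0.54 in the first step and -0.19 from 30 to 34 h, and for Nr1d1 it was -1.05 (adjusted p = 0.0429, limma), with -1.13 and -0.08. Cry2 differed between the steps by 0.49 (adjusted p = 0.0216, limma), with 0.20 in the first and -0.29 in the later one. For Per3 the values were 0.10 and -0.81, and the difference of 0.91 did not pass the test (adjusted p = 0.0577, limma). For single genes, these step differences were not checked with an array left out. Of 108 genes called, the number without 22 h replicate 2 was 256, and it was 23 without 22 h replicate 3, 52 without 22 h replicate 1 or 26 h replicate 2, and 39 to 55 without single arrays of 30 h or without 34 h replicate 1 or 2.

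Over the 6 times the genes that moved between 22 and 26 h followed different courses, as the means with SD (n = 3) show. Nr1d1 went from 10.45 ± 0.23 at 22 h to 9.33 ± 0.36 at 26 h and 9.08 ± 0.15 at 34 h and lay at 10.10 ± 0.18 at 46 h. Cry1 went from 7.84 ± 0.04 at 22 h to 8.39 ± 0.05 at 26 h, was highest at 30 h with 8.50 ± 0.03 and lay at 8.03 ± 0.02 at 40 h. Cyp2f2 was highest at 26 h with 8.89 ± 0.17 and lay at 8.22 ± 0.19 at 46 h. Igf1 and Thbs2 had their highest means at 46 h, 11.40 ± 0.04 and 12.39 ± 0.04, and Nek2 its lowest there, 7.88 ± 0.07. Hbegf was at 10.04 ± 0.09 at 22 h, and its means from 26 h on lay between 9.42 and 9.57. These courses are descriptions, with no test over the 6 times.

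**Figure D5:**
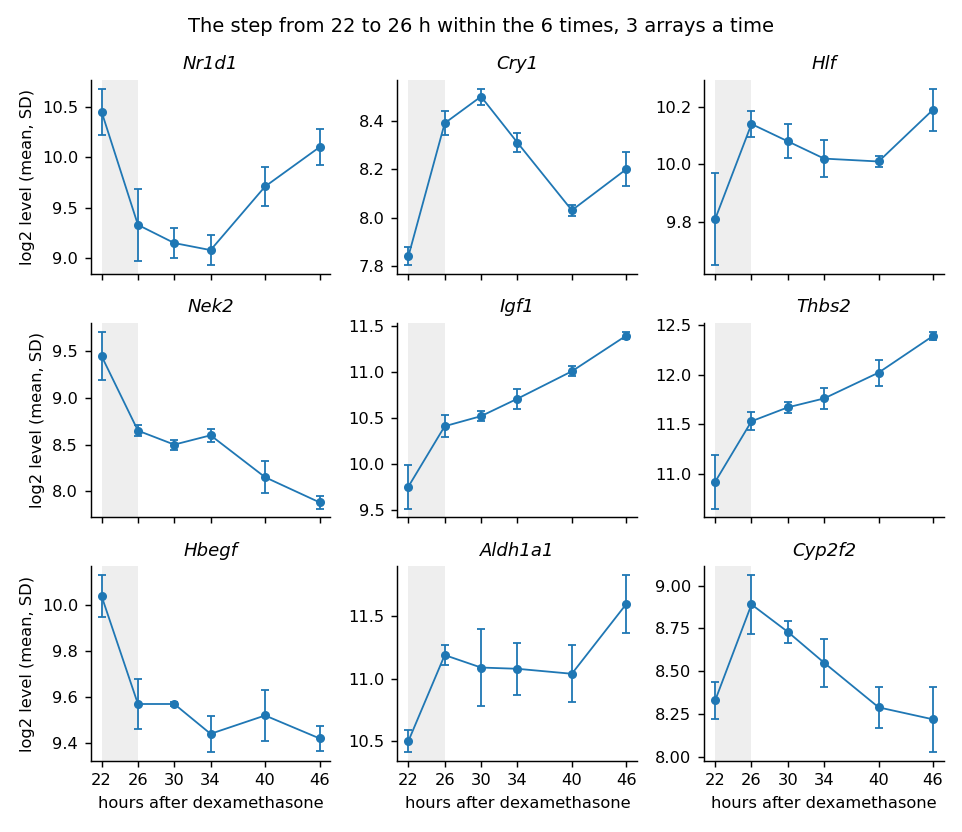
Mean log2 level with SD (error bars, 3 arrays a time) of 9 genes at the 6 times after dexamethasone (x axis, hours), each on its own scale, with the step from 22 to 26 h shaded. Nr1d1 falls and Cry1 rises within the shaded step and both later turn back, while Igf1 and Thbs2 rise up to 46 h and Nek2 is lowest there.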

How the data were processed

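Total RNA of each sample was put on 1 Affymetrix whole-transcript array, per the labels' protocols. The deposited table holds linear intensity, one value for each probe set and array. The submitters' processing notes name Expression Console 1.1 and PLIER 2.0, and the genome build behind the probe sets is not given in the sources used here. Of 35556 probe sets, 21789 had 1 gene symbol in the platform annotation; for each gene the brightest on average was used, leaving 19938. Values were taken as log2(value + 16), which understates changes of dim genes, and quantile normalized. limma 3.58.1 in R 4.3.3 fitted means of the 6 times to all 18 arrays (12 residual degrees of freedom). Gene lists and members were chosen with earlier results of these data known. Named were all measured core clock genes, the 12 largest rises and falls that passed, up to 4 called members per list with the smallest p or, with none called, the widest difference, the 5 largest step differences each way, and cell type markers; gene models and olfactory receptors were passed over. Exceptions within a list (Pttg1, Cdk1, Prc1, Ccnf, Plat, Mmp19, and the step differences of Aurka, Cry2 and Per3) were named after their values were seen. Deviations of same-numbered arrays of 22 h and 26 h correlated at -0.114, -0.385 and -0.134. These values gave no sign of pairing by replicate number but cannot settle it. Promoters came from a RefSeq table on GRCm38.p6. The fit was tested on simulated data in which each gene and array was drawn independently. Those data lack the component shared by genes in the real arrays, so they cannot show how it affects the calls. Alternatives covered normalization, the added constant, dim genes, probe sets, blocks, weights, thresholds and each array left out.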

Additional observations from a re-analysis of the deposited data

Results flagged for a closer look

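The step from 22 to 26 h differed from the step from 30 to 34 h, which shares no array with it, in the genes below by a test of the difference itself (limma, adjusted over all genes). The widest differences belonged to small RNAs: Rnu5g at 1.79 (adjusted p = 0.0443, limma), Snora44 at 1.62 (0.00989) and Snora16a at 1.31 (0.0285). In these 3 the change lay in the later step, with -1.76, -1.34 and -1.27 from 30 to 34 h against 0.03, 0.28 and 0.05 from 22 to 26 h, and 0 of them passed the test in the first step. Cyp2f2 and Cry1 each differed by 0.74 (adjusted p = 0.0268 and 8.37e-05, limma), with the rise in the first step. On the other side Nr1d1 differed by -1.05, Nek2 by -0.90, Hmmr by -0.88 and Ect2 by -0.81 (adjusted p = 0.0429, 0.00992, 0.00992 and 0.0164, limma), with the fall in the first step. Cstdc6, a cystatin domain gene, differed by -0.79 (adjusted p = 0.0224, limma), with -0.31 in the first step and 0.49 in the later one. Whether these calls of single genes hold with an array left out was not checked.

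The annotation does not list 12146 probe sets, which no gene comparison used. Among them 33 passed the test between 26 h and 22 h, 9 higher and 24 lower, when all 35556 probe sets were fitted together. In the gene comparison 436 of 19938 genes passed (2.19%), a larger share.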

How the results depend on the processing

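Leaving out 1 array at a time gave 125 to 1127 genes that passed between 26 h and 22 h, 29 to 629 higher and 96 to 498 lower, 0 for the difference from the step 26 to 30 h and 23 to 256 for that from the step 30 to 34 h. By list it gave 1 to 4 core clock genes higher and 1 to 3 lower, 53 to 78 G2/M genes lower, 0 to 33 G1/S genes lower and 2 to 21 matrix genes higher. With the replicate number as a block, 269 genes passed, 91 of them higher, and 54 for the difference from the step 30 to 34 h. That fit gave 1 core clock gene lower, 8 G1/S genes lower, 4 matrix genes higher and 67 G2/M genes lower. The labels do not say whether replicate numbers pair the arrays.

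Fitting only the arrays compared gave 113 genes, 15 higher and 98 lower, 65 for the step 30 to 34 h, 1 core clock gene higher, 0 G1/S genes and 0 matrix genes. Array weights gave 3958, 2335 higher and 1623 lower, with 4 and 1589 for the differences from the later steps, 8 core clock genes higher, 39 G1/S and 33 matrix genes. At an adjusted p under 0.01 the counts were 145, 31 higher, 114 lower, 13 for the step 30 to 34 h, 1 core clock gene each way, 1 G1/S gene and 3 matrix genes, and under 0.10 they were 728, 374 higher, 215 for the step 30 to 34 h and 13 matrix genes. The array set as a block, chosen after seeing the data, gave 791 genes, 420 higher, 371 lower and 12 matrix genes. These counts can be too high, because that fit removes spread that defined the sets. Matrix genes numbered 11 with a constant of 64 or above the lower quartile, 13 above the median level and 12 with a variance trend, and 319 genes were higher above the median level. The causes of these moves were not tested. The fits that left out arrays held fewer samples.

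Of 65 genes named in the report that passed, 28 kept their call in each fit that left out 1 array and 21 under all alternatives but the threshold, and no direction turned among these 65. Dim probe sets near background limit what the smallest levels can show.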

Other observations

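Probe sets that carried several gene symbols were kept out of the gene comparison. Of the 1621 such probe sets, 6 were higher and 1 was lower at 26 h when all probe sets were tested together. In the gene comparison 0.958% of genes were higher and 1.23% lower, both larger shares.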
